A study of Mus musculus with 121 samples.

Results

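The matrix glycoprotein, proteoglycan and basement membrane genes described here were 44 genes of the extracellular matrix other than collagens, chosen by name and matched to the identifiers of the 31053 genes counted. They comprised 23 glycoprotein and elastic fibre genes, 13 proteoglycan genes and 8 basement membrane genes. Of these 44 members, 43 had at least 1 CPM (counts scaled to the total counts of each library) in at least 3 libraries and were tested among 13292 such genes. The remaining member, Spon1, was at 0 in 51 of 62 libraries and did not exceed 0.92 CPM.

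The extracellular matrix is the meshwork of secreted proteins and sugar chains around cells, and fibroblasts are its main producers in connective tissue. Fibronectin forms fibrils that cells grip through integrins, while fibrillins, fibulins, elastin and the microfibril-associated proteins build elastic fibres. Matricellular proteins such as Sparc, periostin, the thrombospondins and the Smoc proteins sit in this meshwork and modify how cells adhere and signal. Small leucine-rich proteoglycans (decorin, biglycan, lumican, fibromodulin, osteoglycin, asporin) coat collagen fibrils, syndecans and glypicans carry heparan sulfate at the cell surface, and laminins, nidogens and perlecan make up basement membranes. Fibroblasts also run a cell-autonomous circadian clock.

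All libraries came from 1 immortalised line of mouse ear fibroblasts at passage P25 that carries the PER2::LUC sv luciferase knock-in at the clock gene Per2, so every group shares this allele. In HL the cells received 12 h of medium high in glucose and insulin (H) and then 12 h of medium low in both (L), for 3 cycles, in LH the same media in the opposite order, and in HH fresh H medium at every change. After the last cycle the cells were left in free run, with no further change of medium, and RNA was then collected 6 times at intervals of 4 h, and the first collection is called 0 h here. There were 21 HL, 22 LH and 19 HH libraries, 2 to 4 for each treatment and collection, sequenced by 3′DGE, in which reads come from the 3′ end of transcripts so that CPM need no division by gene length. The study calls its replicates biological in general, and the labels name no separate culture for these libraries, so P-values measure the spread between libraries. In these bulk samples fewer cells of a kind and less RNA per cell cannot be told apart.

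The titles of the samples and the library numbers in the read summary of the study do not match for 40 of the 62 libraries, namely every LH library and every HL library after 0 h. Of these, 35 have another treatment or collection by number and 5 have no number in the read summary. HH is named alike by both and is described first. HL and LH are given by titles (62 libraries) and by library numbers (57 libraries, 19 in each treatment), and by numbers LH at 16 h is a single library, 1 of 3 that the read summary marks as removed. Total counts were 104912 to 11619095 per library and at least 2136819 in all but the LH library of 104912 counts, titled as 4 h replicate 2. In 4 libraries the log2 CPM correlated with the median library at a Pearson r under 0.9, namely LH at 4 h replicates 1 and 2, HL at 4 h replicate 3 and HH at 20 h replicate 3. Fibroblast markers summed to a median of 32498 CPM with all 11 markers present in every library, while Col2a1 (cartilage), Pecam1 and Cdh5 (endothelium), Epcam (epithelium) and Myh11 (smooth muscle) had a median of 0. Sox9, Kdr and Acta2, listed as markers of cartilage, endothelium and mural cells, were nonetheless present at medians of 513, 177 and 325 CPM. Leukocyte markers summed to 4.96 to 28.6 CPM in 61 libraries and to 295 CPM in the library of 104912 counts. Adipocyte markers summed to a median of 7.64 CPM and to 90.3 CPM in LH at 4 h replicate 4 by titles, where Adipoq, Cfd and Fabp4 were highest at 10.3, 26.2 and 37.4 CPM, and their part in the LH time courses by titles was not tested.

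The matrix genes included some of the most abundant transcripts of these cells, the members summing to a median of 24383 CPM per library (12010 to 32730 CPM). Sparc, a collagen-binding matricellular protein, had a median of 13559.8 CPM (6103 to 20079 CPM) and ranked 3 of 13292 among all genes tested. Bgn (biglycan) followed at 2586 CPM and Fn1 (fibronectin) at 2108 CPM, and the ranges of these 2 genes over libraries overlapped. Over all members 20 had a median above 100 CPM, 15 lay from 10 to 100 CPM and 9 were under 10 CPM.

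Among the glycoproteins, Postn (periostin, a matricellular ligand of integrins) had a median of 797 CPM, Fbln2 (fibulin 2, which bridges elastic fibres and basement membranes) 683 CPM and Mgp (an inhibitor of calcification) 180.0 CPM. Fbln5, Thbs1, Mfap5 and Ecm1 lay together at medians of 287.7 to 292 CPM, well inside the spread of each. Of the elastic fibre genes, Emilin1 was at 98.2 CPM and the microfibril gene Fbn1 at 71.4 CPM, while Eln (elastin) at 2.39 CPM and Fbln1 at 0.53 CPM had few counts per library. Among the proteoglycans, the neighbouring genes Ogn and Aspn had medians of 558 and 551 CPM with overlapping ranges, above Sdc2 at 248 CPM and Dcn at 242 CPM, and Vcan (versican) was lowest at 2.55 CPM. Basement membrane genes were headed by the laminin chain Lamb2 at 326 CPM, followed by Lamb1 at 122 CPM and Nid1 at 104 CPM, while the muscle-type laminin chain Lama2 was at 1.96 CPM.

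**Figure D1:**
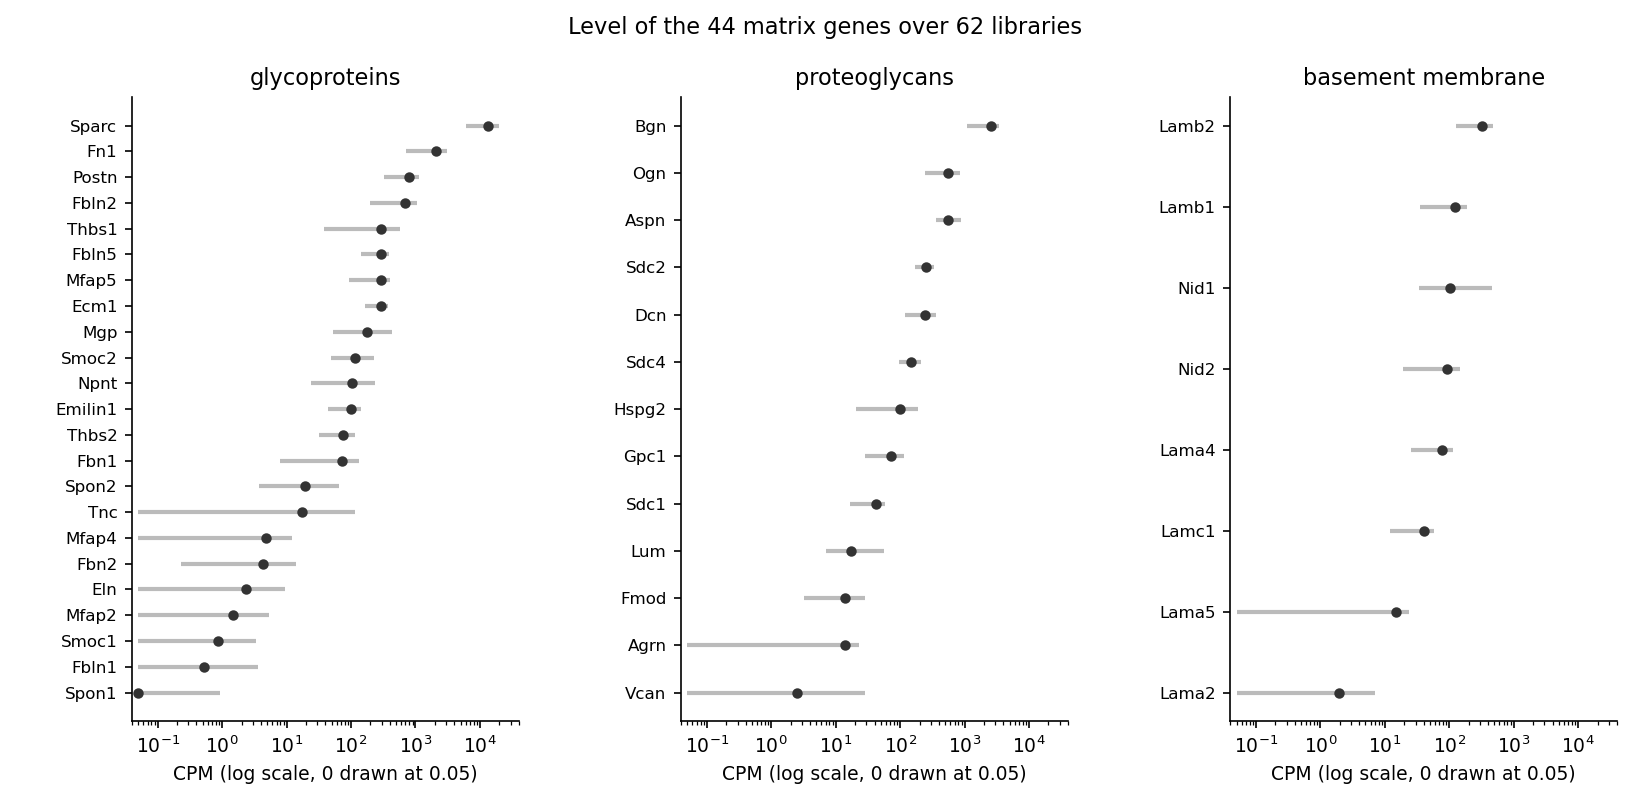
CPM of the 44 members on a log axis, in panels by gene list and in order of their level within each panel. A bar spans the lowest to the highest of 62 libraries and a point marks the median, with values of 0 drawn at 0.05. Sparc stands apart at the top at a median of 13559.8 CPM, and Spon1 is at 0 in 51 libraries.

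HH shows how these genes behaved in free run after cycles with no change between H and L. Spon2, Mgp and Npnt peaked in the early collections and Aspn and Ogn in the late ones, while most members, the abundant Sparc, Fn1 and Bgn among them, did not pass the test. By JTK_CYCLE, a rank test of a 24 h rhythm with an exact null distribution and P corrected over phases but not over genes, 5 of 43 members passed the study's threshold of 0.01 in HH, beside 1.22% of all genes tested (1.23% of those tested with the 57 libraries numbered). These were Spon2, Mgp and Npnt among 22 glycoproteins, Aspn and Ogn among 13 proteoglycans, and none of 8 basement membrane genes. No member passed after Benjamini-Hochberg adjustment over all genes by JTK_CYCLE, with a smallest adjusted p of 0.343 for Spon2 and Mgp, and 7 members had an unadjusted P under 0.05, beside 4.71% of all genes (4.74% with the libraries numbered). The exact null is taken over the 6 collections, although the 24 h curve gives some of them equal values. With a null over collections merged in this way, chosen after seeing the data, the 5 calls in HH held. Members gained under that null are not listed here. Fbln2, Mgp and Spon2 are genes that the study singled out from these same samples, so their values are not independent evidence.

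Spon2 encodes spondin 2, a secreted F-spondin family protein that binds microbial surfaces and integrins (chr5:33198184-33218455, minus strand, GRCm38). Its CPM in the HH libraries was 40.5, 42.8, 48.7 and 54.9 at 0 h, 36.7, 37.2 and 43.2 at 4 h and 25.6, 27.0 and 28.3 at 8 h. It was then 7.56 and 10.6 at 12 h, 8.68, 10.7 and 15.0 at 16 h and 4.99, 13.7, 14.3 and 18.02 at 20 h. Every library of 0, 4 and 8 h was above every library of 12, 16 and 20 h. The mean fell from 46.7 ± 6.45 CPM (SD, n = 4) at 0 h to 9.08 ± 2.15 CPM (SD, n = 2) at 12 h, a 5.15-fold range. The exact JTK_CYCLE P was 0.000418 with a fitted peak at 2 h, the smallest P of the members. The P lay at 0.00179 to 0.0156 when each replicate number was left out, and it missed the threshold only without HH replicate 1.

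Mgp encodes matrix Gla protein, which binds calcium and keeps soft tissue from mineralising (chr6:136872435-136875823, minus strand). Its CPM in HH was 286, 302, 382 and 386 at 0 h, 174, 186 and 286 at 4 h and 146, 159.5 and 161 at 8 h. It was 93.0 and 159 at 12 h, 161, 175 and 182 at 16 h and 102, 166, 248 and 251.5 at 20 h. The 4 libraries of 0 h were above all libraries of 8 h and later, and the mean turned upward again after the trough at 12 h. The range from 339 ± 52.4 CPM (SD, n = 4) to 126 ± 46.8 CPM (SD, n = 2) was 2.69-fold. JTK_CYCLE gave an exact P of 0.000517 with a peak at 0 h, and P stayed under the threshold in all 4 leave-outs (0.00231 to 0.00902).

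Npnt encodes nephronectin, an integrin ligand of basement membranes (chr3:132881745-132950291, minus strand). Its CPM in HH was 116, 128, 131 and 133 at 0 h, 127, 130.5 and 164 at 4 h and 119.7, 135 and 138 at 8 h. It was 95.4 and 102 at 12 h, 82.6, 92.8 and 130.3 at 16 h and 25.2, 51.8, 60.0 and 105 at 20 h. The last collection was lowest and most spread, and none of its libraries reached those of the first 3 collections. JTK_CYCLE gave an exact P of 0.00757 with a peak at 6 h, but 0.0166 without the 20 h library that stands apart, and the call was lost in all 4 leave-outs (0.0223 to 0.0585). It was also lost with TMM-scaled CPM (exact P 0.0101) and with the second sequencing run alone (0.0515).

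Fbln2 and Fbn2 (fibrillin 2, a microfibril protein of developing tissue) also had their highest means at 0 or 4 h in HH, and both missed the threshold. Fbln2 was at 888, 939 and 989 CPM at 4 h and 198, 462, 614 and 723 CPM at 20 h, where the library that stands apart gave the lowest value. All 3 libraries of 4 h were above every other HH library, and the exact JTK_CYCLE P was 0.0227. Fbn2 was at 4.39, 7.37, 11.7 and 14.2 CPM at 0 h and 1.15 and 2.94 CPM at 12 h, a low level at which the counting error is large, with an exact JTK_CYCLE P of 0.102. A cosinor in edgeR, which fits a 24 h cosine and sine, gave Fbn2 a P of 0.00663 in HH without adjustment (fit by titles).

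Aspn encodes asporin, a small leucine-rich proteoglycan that binds collagen and TGF-beta (chr13:49544443-49567565, plus strand). Its CPM in HH was 382, 389, 396 and 444 at 0 h, 452, 511 and 554 at 4 h and 496, 548 and 613 at 8 h. It was 571 and 629 at 12 h, 649, 651 and 738 at 16 h and 615, 636, 641 and 670.3 at 20 h. All 4 libraries of 0 h were below every later library. The mean rose from 403 ± 28.1 CPM (SD, n = 4) to 679 ± 50.7 CPM (SD, n = 3) at 16 h, 1.69-fold, with an exact JTK_CYCLE P of 0.00349 and a peak at 14 h. The call was lost in 3 of 4 leave-outs (0.00887 to 0.0621) and held only without HH replicate 4.

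Ogn encodes osteoglycin, a small leucine-rich proteoglycan of the same chromosomal cluster (chr13:49608046-49624501, plus strand). Its CPM in HH was 384, 407, 414 and 502 at 0 h, 454, 515 and 555 at 4 h and 548, 562 and 674 at 8 h. It was 533 and 639 at 12 h, 691, 718 and 783 at 16 h and 481, 576, 678 and 747 at 20 h. The 16 h libraries were above all of 0 and 4 h, while those of 20 h spread from the level of 0 h to that of 16 h. The exact JTK_CYCLE P was 0.00867 with a peak at 14 h, and it was over the threshold in all 4 leave-outs (0.022 to 0.135). Omd (osteomodulin), which lies between Aspn and Ogn, was at a median of 11.1 CPM with an exact JTK_CYCLE P of 0.102 in HH. Cenpp overlaps both genes on the opposite strand at a median of 1.91 CPM with a P of 0.816, and whether the counting used strand is not given in the sources used here.

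Smoc2, a calcium-binding matricellular protein of the Sparc family (chr17:14279506-14404790, plus strand), was also highest late in HH. Its CPM was 94.9, 103, 116 and 118 at 0 h, 159, 163 and 191 at 16 h and 125, 150.4, 214 and 230.5 at 20 h. Both late collections lay above all 0 h libraries, although the 4 h libraries spread from 63.1 to 162 CPM. Its exact JTK_CYCLE P was 0.126, and the cosinor in edgeR, an alternative that fits a 24 h cosine and sine, gave P = 0.000179 without adjustment. The most abundant members showed no such order. Fn1 in HH was at 1799.5, 2109, 2129 and 2289 CPM at 0 h, 2405, 2751 and 3060.2 CPM at 4 h and 2155, 2473 and 2762 CPM at 8 h. It was at 2023 and 2266 CPM at 12 h, 2153, 2263 and 2378 CPM at 16 h and 721, 1940.4, 2429.8 and 2591 CPM at 20 h. The lowest value came from the library that stands apart, the 4 h and 20 h libraries overlapped, and the exact JTK_CYCLE P was 0.567. Sparc was at 12517, 12689, 14371 and 15159 CPM at 0 h, 13205, 13834 and 15489.9 CPM at 4 h and 13007, 14488 and 14865 CPM at 8 h. It was at 13325 and 14802 CPM at 12 h, 12869, 13944 and 14627 CPM at 16 h and 6103, 8794, 13279 and 13865 CPM at 20 h. The same library was lowest, and the exact P was 0.447.

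None of the 8 basement membrane genes passed in HH. Lamb1, the beta 1 laminin chain, had its highest mean in HH at 4 h, 171 ± 6.61 CPM (SD, n = 3), with an exact JTK_CYCLE P of 0.0418. Its 20 h libraries were at 56.4, 82.4, 142 and 160.1 CPM, the lowest being the library that stands apart, and spread from below to above the 12 h mean of 117 CPM. Nid1 had means of 149 ± 8.63 CPM at 0 h and 80.0 ± 40.3 CPM at 20 h, where the same library was lowest at 35.7 CPM, with an exact P of 0.186. The means of Lamc1 and Lamb2 stayed within a 1.09-fold and a 1.18-fold range. Among the remaining proteoglycans the range of HH means was 1.31-fold for Bgn, 1.36-fold for Sdc2 and 1.48-fold for Dcn, with the low end of Bgn set by 20 h, where the library that stands apart had 1095 CPM. The exact P were 1, 0.0826 and 0.524. Among the remaining glycoproteins Thbs2, an inhibitor of angiogenesis, came nearest to the threshold at an exact P of 0.0596, with means of 63.5 ± 10.2 CPM at 0 h and 91.3 ± 7.28 CPM at 12 h.

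**Figure D2:**
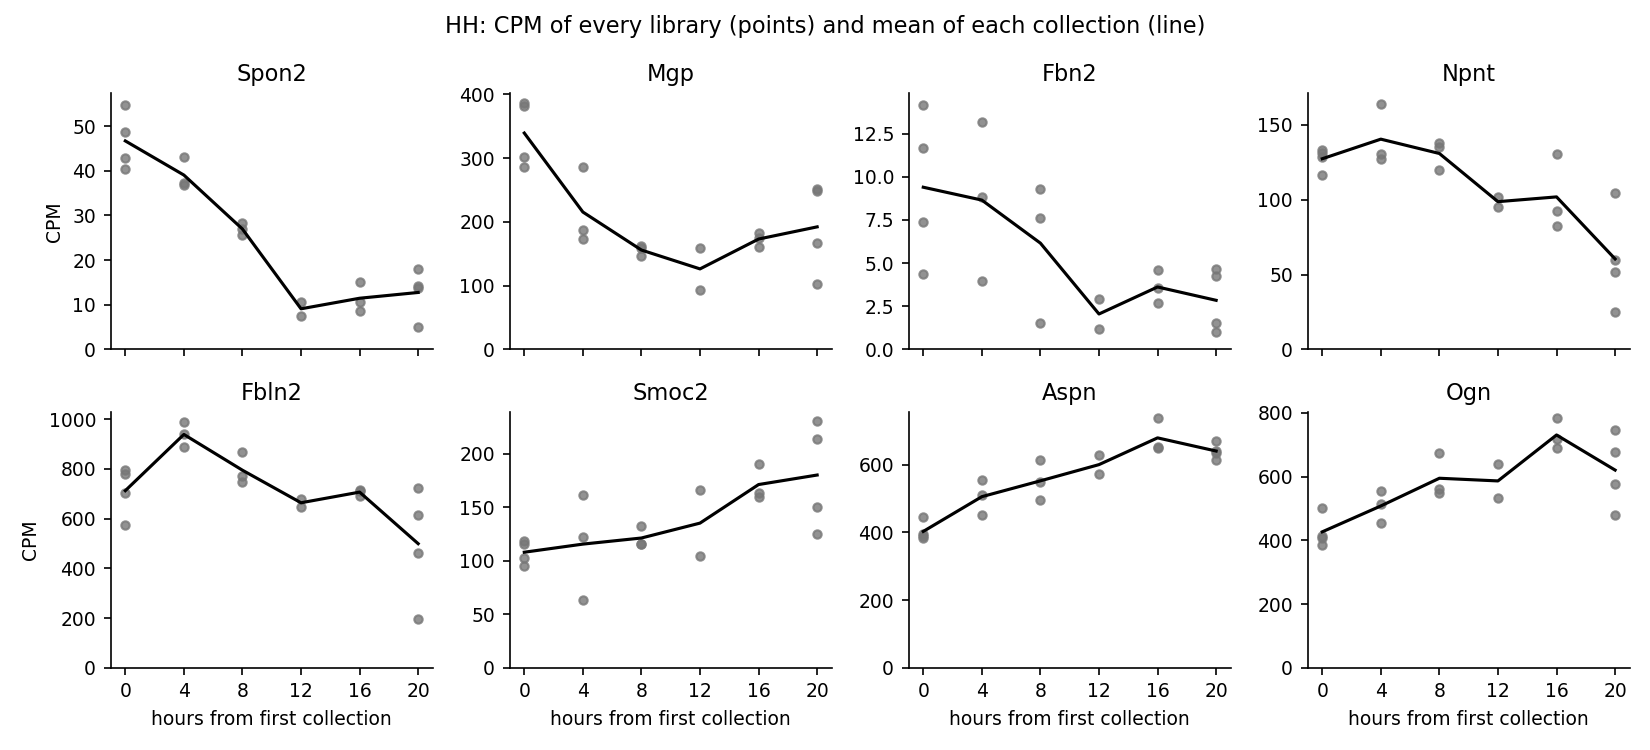
CPM in HH against hours from the first collection for 8 members, with 1 point per library and a line through the collection means. The 5 genes Spon2, Mgp, Fbn2, Npnt and Fbln2 are highest at 0 or 4 h, and Smoc2, Aspn and Ogn at 16 or 20 h.

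Without the 20 h library that stands apart the exact JTK_CYCLE P in HH was 0.000613 for Spon2, 0.0011 for Mgp, 0.00567 for Aspn and 0.00784 for Ogn, so that 4 of the 5 calls held. Other genes moved over the same HH collections. The summed level of 12 proliferation genes had means of 300.3, 271.5, 356, 197, 164 and 144 CPM from 0 to 20 h. That of 14 clock genes had means of 197, 226.2, 575, 680.0, 468 and 332 CPM. These were Nr1d1, Nr1d2, Dbp, Tef, Hlf, Per1, Per2, Per3, Cry1, Cry2, Ciart, Arntl, Bhlhe41 and Nfil3. Their sum mixes phases, since the study describes Per2 and Arntl (Bmal1) as opposite in phase. Over the 19 HH libraries the Spearman rho with the proliferation sum was 0.75 for Spon2, 0.73 for Npnt, 0.74 for Fbn2 and -0.69 for Aspn. With the clock gene sum it was -0.87 for Mgp and -0.71 for Spon2. These are descriptions over libraries that share their collection and normalisation, and the part of proliferation or the clock in the members' values was not tested.

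Members also varied together across the 19 HH libraries. The rho of Ogn with Aspn was 0.914, the highest of 903 pairs, whose median was 0.17. Aspn was likewise close to Smoc2 (0.809) and lay opposite to Spon2 (-0.798), the lowest rho of all pairs. Spon2 was closest to Nid1, the basement membrane linker nidogen 1 (0.760), and had a rho of 0.739 with Fbn2 and 0.721 with Mgp. A separate pair was that of the most abundant members, Sparc and Bgn (0.846), and Fn1 was closest to Postn (0.782). The points share the collections, so genes that follow time in the same way have a high rho.

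**Figure D3:**
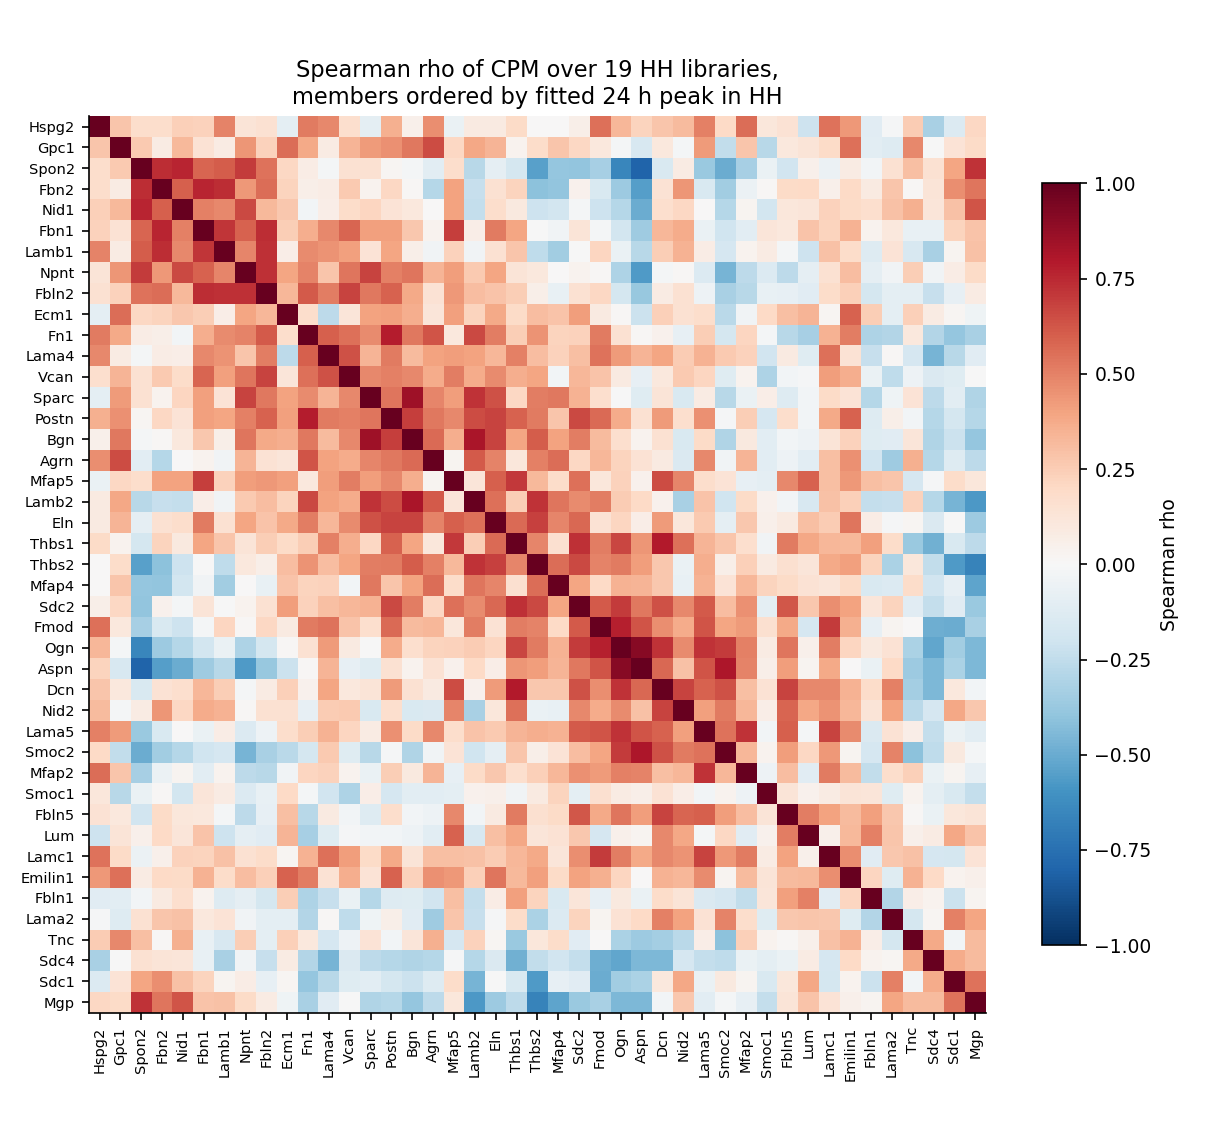
Spearman rho of log2 CPM over the 19 HH libraries between members, as a colour from negative to positive. Ogn, Aspn and Smoc2 are positive with each other (up to 0.914) and negative with Spon2 (down to -0.798).

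To show the upstream sequence of 2 neighbouring genes that peaked late and of 1 gene that peaked early, the 250 bases before their RefSeq start sites (GRCm38.p6, 5′ to 3′ on the strand of the gene) are shown, with motif matches in capitals. Spon2 and Mgp were not in the promoter table used, and of the 2 windows it holds for Npnt 1 is shown. Each window was searched on both strands for CACGTG (E-box), TTANGTAA (D-box), AGGTCA (nuclear receptor element), TGANTCA (AP-1) and GGAATG (TEAD), which occur in 6.02%, 2.06%, 14.0%, 6.75% and 12.6% of 32851 windows of this length. The windows lie at chr13:49544193-49544442 (plus strand), chr13:49607765-49608014 (plus strand) and chr3:132950292-132950541 (minus strand).
Aspn: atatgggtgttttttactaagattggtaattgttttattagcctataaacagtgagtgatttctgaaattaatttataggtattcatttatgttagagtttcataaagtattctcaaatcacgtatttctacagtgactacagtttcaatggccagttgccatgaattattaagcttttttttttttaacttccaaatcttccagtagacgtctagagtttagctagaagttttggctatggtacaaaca
Ogn: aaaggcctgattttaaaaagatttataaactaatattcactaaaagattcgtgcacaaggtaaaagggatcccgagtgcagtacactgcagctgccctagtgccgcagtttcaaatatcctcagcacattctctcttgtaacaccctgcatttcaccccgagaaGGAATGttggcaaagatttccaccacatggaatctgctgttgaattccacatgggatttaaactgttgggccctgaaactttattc
Npnt: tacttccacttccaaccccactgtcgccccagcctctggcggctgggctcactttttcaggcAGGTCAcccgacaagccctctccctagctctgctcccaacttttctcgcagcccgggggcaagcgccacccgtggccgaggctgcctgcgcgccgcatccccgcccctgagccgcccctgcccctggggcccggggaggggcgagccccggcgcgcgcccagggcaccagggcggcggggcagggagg
The Aspn window held none of the 5 motifs. The Ogn window held 1 GGAATG match starting 86 bases before the start site, and the Npnt window 1 AGGTCA match starting 188 bases before it. The windows differed in base composition, with a GC content of 30% for Aspn, 42% for Ogn and 74% for Npnt against a median of 52.4% over all windows.

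By library numbers, Spon2 and Mgp were high early and low later in HL and LH as well. Of 43 members, 4 passed JTK_CYCLE in HL (Fbn2, Mgp, Postn, Spon2) beside 1.03% of all genes, and 5 in LH (Fbln2, Lamc1, Mgp, Npnt, Spon2) beside 1.31%. Mgp and Spon2 thus passed in all 3 treatments. The smallest adjusted p by JTK_CYCLE was 0.332 in HL and 0.475 in LH, and 10 members in each had an unadjusted P under 0.05, beside 4.3% of all genes in HL and 4.47% in LH.

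Spon2 in HL by numbers was at 46.4, 56.2 and 61.8 CPM at 0 h, 40.3, 52.2 and 64.4 CPM at 4 h and 17.4, 21.1 and 33.8 CPM at 8 h. It was at 9.36, 12.3, 12.3 and 15.9 CPM at 12 h, 3.68, 11.5 and 12.3 CPM at 16 h and 8.93, 9.67 and 14.6 CPM at 20 h. All libraries of 0, 4 and 8 h were above those of the later collections. In LH by numbers it was at 44.3, 58.8 and 61.0 CPM at 0 h, 35.9, 44.1 and 51.1 CPM at 4 h and 20.6, 23.7, 26.1 and 34.0 CPM at 8 h. It was at 6.19, 7.51, 7.81 and 10.8 CPM at 12 h, 11.2 CPM in the single library of 16 h and 5.77, 9.30, 12.1 and 24.4 CPM at 20 h. The order was again high before low, with 1 library of 20 h at 24.4 CPM inside the range of 8 h. The exact JTK_CYCLE P was 0.000648 in HL and 0.000483 in LH, with peaks at 4 and 2 h. The HL call was lost without HL replicate 2 or 4 (up to 0.0280), and the LH call held in all 4 leave-outs (0.00128 to 0.00829).

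Mgp in LH by numbers was at 291.2, 321 and 378 CPM at 0 h, 261.4, 273.6 and 436 CPM at 4 h and 137, 147, 168 and 176 CPM at 8 h. It was at 102, 133, 144 and 148 CPM at 12 h, 52.8 CPM in the single library of 16 h and 102, 180.3, 185 and 194 CPM at 20 h. Every library of 0 and 4 h was above all later ones, and that of 16 h was the lowest Mgp value of the 62 libraries. The exact JTK_CYCLE P was 0.000325 with a peak at 2 h and held in all 4 leave-outs (0.00128 to 0.00829). In HL by numbers Mgp had its highest mean at 0 h, 284 ± 41.3 CPM (SD, n = 3), and its lowest at 8 h, 150.1 ± 29.3 CPM (SD, n = 3). Over the 19 HL libraries it ranged from 103 to 325 CPM with a median of 193 CPM. There the exact P was 0.00569, and the call was lost in all 4 leave-outs (0.0169 to 0.0783).

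Fbn2, which missed the threshold in HH, passed in HL by numbers with an exact JTK_CYCLE P of 0.000528. Its CPM there was 6.74, 8.58 and 9.19 at 0 h and 1.59, 2.47, 2.59 and 2.59 at 12 h, without overlap, and over the 19 HL libraries it ranged from 1.59 to 12.0 CPM with a median of 3.75 CPM. The call was lost without HL replicate 1, with an exact P of 0.0136. Postn in HL by numbers had means of 896 ± 3.93 CPM at 0 h, 589 ± 168 CPM at 8 h and 913 ± 42.6 CPM at 20 h. Over the 19 HL libraries it ranged from 395 to 946 CPM with a median of 794 CPM. Its exact P was 0.00305 with a peak at 22 h, and the call held in 1 of 4 leave-outs, that without HL replicate 1.

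In LH by numbers Npnt had means of 144 ± 27.2 CPM at 0 h and 79.8 ± 21.9 CPM at 20 h, with an exact JTK_CYCLE P of 0.00621. Fbln2 had means of 833 ± 136 CPM at 4 h and 567 ± 103 CPM at 20 h, with an exact P of 0.00835, and 0.0119 without the libraries that stand apart. Lamc1, the gamma chain shared by most laminins, was at 44.8, 49.6 and 50.7 CPM at 0 h and 27.4, 30.7, 30.8 and 36.3 CPM at 12 h with an exact P of 0.00835. Over the 19 LH libraries by numbers Npnt ranged from 48.0 to 179 CPM with a median of 116 CPM. Fbln2 ranged from 458 to 953 CPM with a median of 686 CPM, and Lamc1 ranged from 27.4 to 50.7 CPM with a median of 37.5 CPM. All 3 calls were lost in each of the 4 leave-outs. Aspn and Smoc2 had their highest means at 20 h in HL by numbers without passing JTK_CYCLE. Aspn in HL rose from 398 ± 32.2 CPM (SD, n = 3) at 0 h to 649.9 ± 30.9 CPM (SD, n = 3) at 20 h, with an adjusted p of 0.0208 for differences between collections by edgeR. Smoc2 in HL was at 77.5, 101 and 115 CPM at 0 h and 175, 184 and 198 CPM at 20 h, with an adjusted p of 0.0197 by edgeR. In LH by numbers the means were also highest at 20 h, but the single library of 16 h lay below the 0 h mean for Aspn (415 against 431 CPM), Ogn (366 against 466 CPM) and Smoc2 (49.2 against 103 CPM).

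By titles the same libraries gave other time courses. In HL 2 of 43 members passed JTK_CYCLE, Sdc4 and Agrn, beside 0.466% of all genes, and in LH 2 passed, Smoc2 and Spon2, beside 0.933%. No member passed after adjustment over all genes by JTK_CYCLE in either treatment, with 3 members at an unadjusted P under 0.05 in HL and 4 in LH, beside 2.68% and 3.83% of all genes. Sdc4, the heparan sulfate proteoglycan syndecan 4 of focal adhesions, was at 156, 164, 179.6 and 199 CPM at 4 h and 97.6, 122, 127 and 133 CPM at 20 h in HL, without overlap. Its exact P was 0.000538 and was over the threshold without HL replicate 2 (0.0293). Agrn, the heparan sulfate proteoglycan agrin of basement membranes, was at 6.67, 8.18 and 9.95 CPM at 0 h and 15.3, 18.2, 18.6 and 20.4 CPM at 12 h in HL, also without overlap. Its exact P was 0.00118, with the call lost without HL replicate 1, 3 or 4 (0.00293 to 0.0247 over the leave-outs) and with either sequencing run alone. Over the 21 HL libraries by titles Sdc4 ranged from 97.6 to 199 CPM with a median of 139.7 CPM and Agrn ranged from 5.81 to 20.4 CPM with a median of 11.5 CPM. By library numbers both genes had a P of 1 in HL.

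Spon2 by titles was spread within collections. In HL at 4 h its CPM was 5.96, 7.58, 14.5 and 58.8, 1 library being far above the other 3, and in LH at 4 h it was 5.77, 23.4 and 47.7. Of these LH values the highest came from the library of 104912 counts, the middle one from the library with the high adipocyte markers and the lowest from the other library that stands apart. Over all 21 HL libraries Spon2 ranged from 5.96 to 61.8 CPM with a median of 26.1 CPM, and over the 22 LH libraries it ranged from 3.68 to 64.4 CPM with a median of 13.5 CPM. In LH the mean was highest at 8 h, 47.7 ± 13.5 CPM (SD, n = 4), and lowest at 20 h, 9.22 ± 4.47 CPM (SD, n = 4), with an exact P of 0.00401 that missed the threshold without LH replicate 1, 2 or 4 (0.00231 to 0.105 over the leave-outs). In HL the exact P was 0.549. Smoc2 in LH was at 92.1, 102, 109 and 118 CPM at 8 h and 144, 175, 184 and 198 CPM at 20 h, without overlap, and its exact P was 0.00648 with the call lost without LH replicate 1, 2 or 3 (0.00516 to 0.0535 over the leave-outs).

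**Figure D4:**
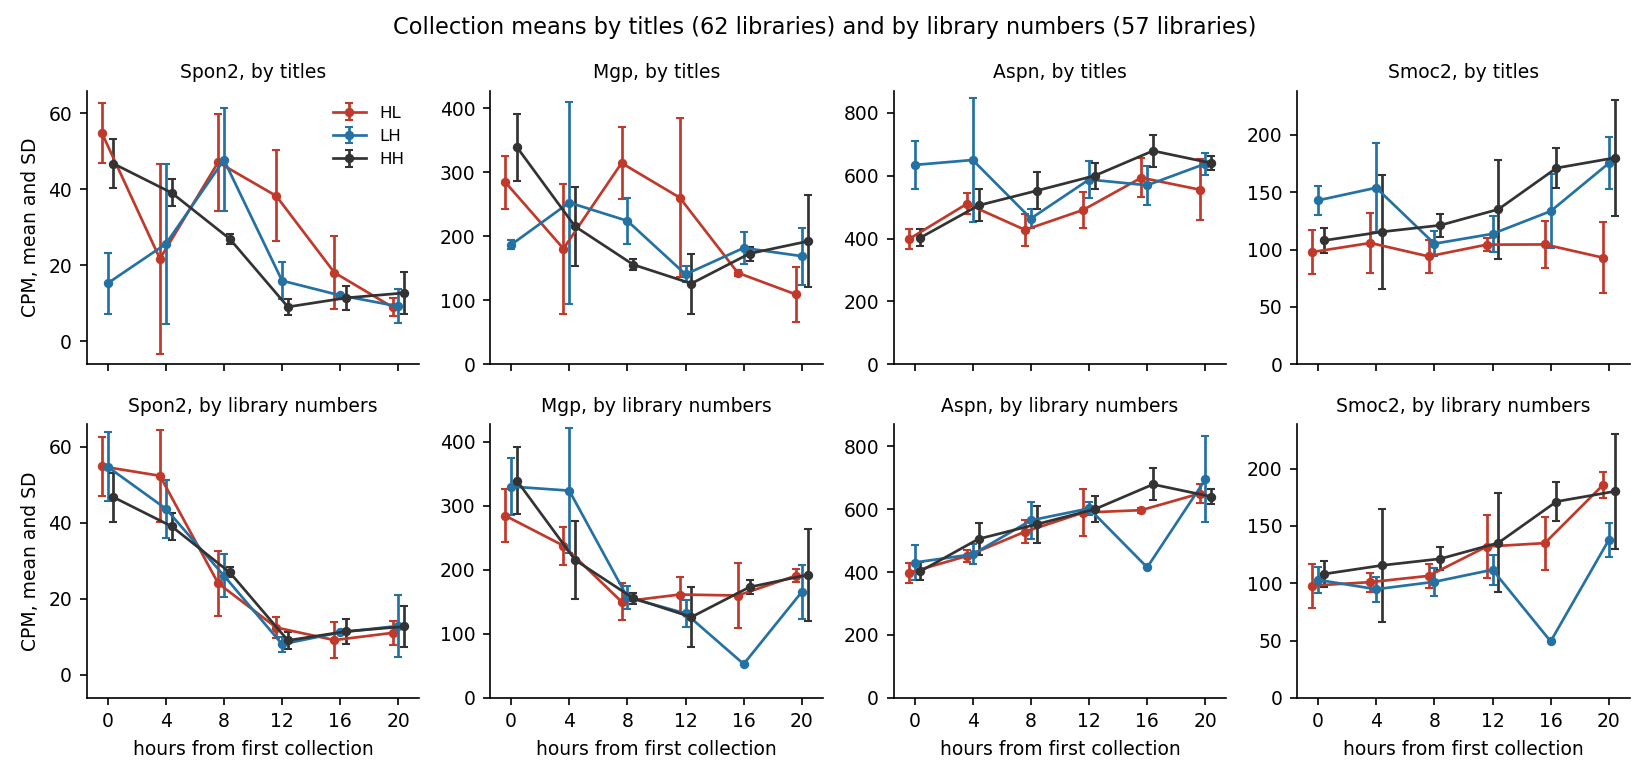
Mean CPM with SD of Spon2, Mgp, Aspn and Smoc2 against hours from the first collection in HL, LH and HH, by titles (upper row) and by library numbers (lower row). By numbers the Spon2 means of the treatments lie together, at 46.7 to 54.8 CPM at 0 h and 8.09 to 12.5 CPM at 12 h, and the LH point at 16 h is 1 library with no SD.

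The edgeR test for any difference between the 6 collections of a treatment, adjusted over all genes at 0.05, called few members. Their number changed with the leave-outs and with a replicate block, as given in the last section. By titles these were Mgp and Spon2 in HL (0.301% of all genes called), Smoc2 and Spon2 in LH (2.93%) and Aspn and Spon2 in HH (0.293%). By library numbers they were Aspn, Npnt, Smoc2 and Spon2 in HL (0.394%) and Aspn, Mgp, Smoc2 and Spon2 in both LH (1.05%) and HH (0.803%). HH holds the same libraries in both, and its adjusted p for Mgp was 0.108 by titles and 0.0025 by numbers, since edgeR estimates the spread from all 3 treatments together. Spon2 was called in every treatment by both assignments, with an adjusted p by edgeR from 0.00205 to 0.00895 by titles and from 2.64e-08 to 4.19e-06 by numbers. By titles, for each treatment at least 1 leave-out of a replicate left no member called, Spon2 included. The fitted cosinor range of Spon2 in HH was 2.43 on the log2 scale from trough to peak, against a median of 0.45 over the 43 members and 0.38 over all genes tested.

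The overall level of most members hardly differed between treatments. By titles, with the study's thresholds of 0.01 over the treatments and 0.05 for the comparison, both unadjusted, Emilin1 and Smoc2 were higher in LH than in HL and no member was lower, beside 0.429% and 0.73% of all genes (1.16% in either direction). Emilin1, Postn and Smoc2 were higher in HH than in HL and none lower (0.459% and 0.745%, together 1.2%), and Postn was lower in LH than in HH and none higher (0.481% and 0.429%, together 0.91%). No member passed Benjamini-Hochberg adjustment in edgeR or DESeq2, although 8, 6 and 3 members had an unadjusted P under 0.05 in edgeR in the 3 comparisons, beside 5.69%, 7.41% and 5.23% of all genes, and DESeq2 gave no adjusted p for 20 members in HH against HL. Of the 8 members at an unadjusted P under 0.05 for LH against HL, Spon2 (-0.64, SE 0.22), Nid1 (-0.53, SE 0.18) and Npnt (-0.41, SE 0.14) had the lowest log2 differences in LH and missed the threshold over the treatments. By numbers these differences were -0.04, 0.42 and 0.12. HL is in 2 of these comparisons, so they are not independent. Over the 43 members the median log2 difference was 0.05 for LH against HL, 0.11 for HH against HL and -0.06 for LH against HH, beside 0.00 in each over all genes.

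Smoc2 by titles ranged from 49.2 to 136 CPM with a median of 103 CPM in HL, from 92.1 to 198 CPM with a median of 131 CPM in LH and from 63.1 to 230.5 CPM with a median of 125 CPM in HH. HL was lowest, with overlapping ranges, and the log2 difference by edgeR was 0.40 (SE 0.09) for LH and 0.40 (SE 0.10) for HH against HL, with adjusted p of 0.243 and 0.326. With the second sequencing run alone both calls were lost, at 0.26 and 0.28. By library numbers the order changed. LH was then lowest, at 49.2 to 157 CPM with a median of 106 CPM, and HL ranged from 77.5 to 198 CPM with a median of 115 CPM. The log2 difference of LH against HL turned to -0.16 and that of LH against HH to -0.30 (SE 0.09, edgeR adjusted p 0.262). The single LH library of 16 h had the lowest Smoc2 value of all, 49.2 CPM, and the LH against HH call by numbers was lost without LH replicate 1, which holds that library, without LH replicate 4, HH replicate 2 or HH replicate 3, and without the libraries that stand apart, at -0.28.

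Emilin1, a glycoprotein that anchors elastic fibres and restrains TGF-beta, was likewise lowest in HL by titles and in LH by numbers. By titles it ranged from 44.2 to 112 CPM with a median of 91.0 CPM in HL, from 64.6 to 144 CPM with a median of 106 CPM in LH and from 63.2 to 141 CPM with a median of 109.9 CPM in HH. The ranges overlapped, HL again being lowest, with edgeR log2 differences of 0.21 (SE 0.08) for LH and 0.28 (SE 0.09) for HH against HL. By library numbers LH was lowest, at 44.2 to 112 CPM with a median of 86.6 CPM, and HL had 71.8 to 144 CPM with a median of 109 CPM. The log2 difference was then -0.33 (SE 0.08) against HL and -0.35 (SE 0.08) against HH, with edgeR adjusted p of 0.289 and 0.147. By titles both calls were lost without HL replicate 2, HL replicate 4 or HH replicate 1, with either sequencing run alone and with the replicate block (0.20 and 0.26), and by numbers both held in all 12 leave-outs. For both Emilin1 and Smoc2 the direction of LH against HL thus reverses with the naming of the libraries.

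Postn was higher in HH than in both other treatments by titles. Its CPM in HH ranged from 325 to 1151 CPM with a median of 954 CPM, in HL by titles from 373 to 992 CPM with a median of 747 CPM and in LH by titles from 395 to 946 CPM with a median of 762 CPM. HH was higher by a log2 difference of 0.28 (SE 0.09) over HL, and LH differed from HH by -0.27 (SE 0.09), with edgeR adjusted p of 0.481 and 0.793. By numbers the differences were 0.22 and -0.23, and the edgeR test over the 3 treatments (19 libraries each) missed 0.01 at an unadjusted P of 0.0117. By titles, leaving out HH replicate 1 or HH replicate 4 ended both calls. By numbers Emilin1 was lower in LH than in HL (0.386% of all genes lower, 0.955% higher, together 1.34%), Emilin1 and Smoc2 were lower in LH than in HH (0.455% lower, 1.17% higher, together 1.63%), and no member passed between HH and HL (0.349% lower, 0.568% in either direction). After adjustment no member passed by numbers, beside 0.0152%, 0.00758% and 0.0227% of all genes for LH against HL, HH against HL and LH against HH, and 4, 2 and 6 members had an unadjusted P under 0.05 in edgeR, beside 7.63%, 3.62% and 10.2%.

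**Figure D5:**
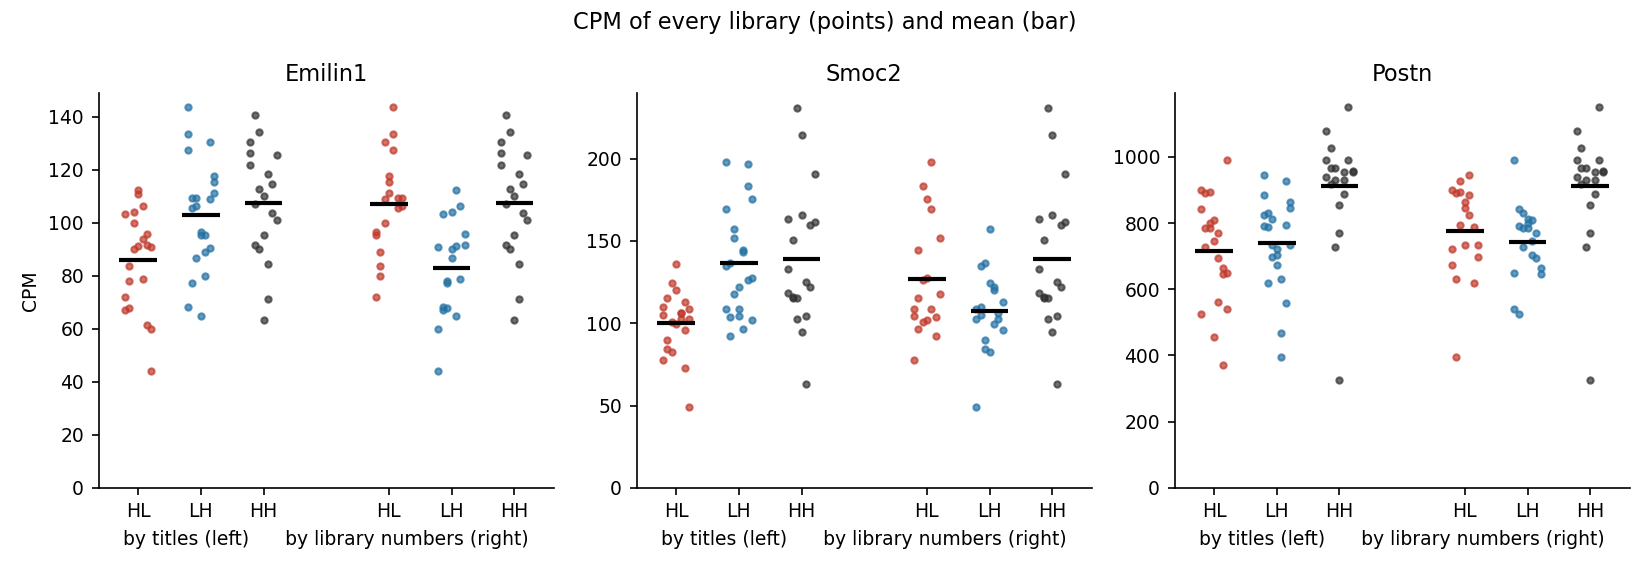
CPM of every library of HL, LH and HH for Smoc2, Emilin1 and Postn, by titles and by library numbers, with 1 point per library and a line at the mean. HL is lowest for Smoc2 and Emilin1 by titles and LH by numbers, and HH is highest for Postn in both.

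Whether rhythms differed between treatments was tested by comparing the 24 h cosine and sine of 2 treatments in edgeR. No member passed after adjustment by either naming. By titles this was beside 0.0677%, 0.015% and 0.0527% of all genes for LH against HL, HH against HL and LH against HH, and by numbers beside 0.00758%, 0% and 0%. By titles 5, 7 and 6 members had an unadjusted P under 0.05, beside 7.21%, 9.91% and 9.61% of all genes. The nearest were Agrn for LH against HL (adjusted p 0.0941) and Mgp for HH against HL (adjusted p 0.0984) by edgeR, and DESeq2 called these 2 genes at 0.05. By library numbers 1, 1 and 3 members had an unadjusted P under 0.05, beside 3.01%, 5.48% and 6.87% of all genes, and the adjusted p by edgeR was 1 for Agrn and 0.999 for Mgp in those comparisons.

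Among other genes of the matrix pathway, none of 45 tested family genes off the list, 21 matrix receptors and 30 genes of glycosaminoglycan synthesis passed JTK_CYCLE in HH. In LH by numbers the integrin chain Itgb1, shared by most matrix receptors, had an exact P of 0.00621 and the heparan sulfate sulfotransferase Hs6st2 an exact P of 0.00835. Of the family genes, Matn2 (matrilin 2) was higher by titles in LH than in HL by 0.26 (SE 0.08) and in HH than in HL by 0.22 (SE 0.08) on the log2 scale, past the unadjusted thresholds in edgeR. Spock1 (testican 1, a secreted proteoglycan) had a median of 0.13 CPM and was higher by numbers in LH than in HL by 2.86 (SE 0.52) with an edgeR adjusted p of 0.00629. By numbers it was also higher in LH than in HH, by 3.40 (SE 0.56, edgeR adjusted p 0.000652). By titles it passed the unadjusted thresholds in HH against HL at -3.00 and in LH against HH at 1.93, with -1.07 for LH against HL. All are fitted values that rest on few counts and depend on the prior count. Has2, a hyaluronan synthase, was past the unadjusted thresholds by numbers, higher in LH than in HL by 0.84 (SE 0.27), with an edgeR adjusted p of 0.553, and by titles its difference was -0.05. Ccn1 (a matricellular ligand of integrins) was past the unadjusted thresholds by numbers, with log2 differences of 0.41 for HH against HL and -0.40 for LH against HH, as was the integrin chain Itgb5 at -0.20 for LH against HH. Differences between LH collections passed adjustment in edgeR for Crim1, Spock1, Has2 and Ext1 by titles (adjusted p 0.00309 to 0.0178) and for Ltbp1, Crim1 and Dse by numbers (adjusted p 0.00517 to 0.0496).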

How the data were processed

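The authors deposited raw counts of reads per gene, 1 column for each library and sequencing run, from 3′DGE libraries demultiplexed with bcl2fastq, aligned with STAR 2.6.0a and counted with HTSeq 0.9.1 on mm10, per the submitters' processing notes. Neither the annotation release nor a strand setting is stated in these notes. Runs of a library were summed (59 libraries had 2 runs and 3 had 1 run), because runs differed less (chi-square per degree of freedom 1.27 to 2.09) than libraries did (at least 2.92). Reads assigned to no feature (18.4% to 29.1%) or ambiguous (0.288% to 0.459%) were left out. Of 31053 identifiers, 30934 matched a mouse symbol in GENCODE M21 (GRCm38). The gene list and the other lists were chosen with earlier results of these data known.

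CPM are counts scaled to the summed gene counts of each library, and genes with at least 1 CPM in 3 libraries were tested. Levels, collections and 24 h cosinor differences were tested with edgeR 4.0.16 quasi-likelihood with TMM factors (limma 3.58.1, R 4.3.3) over all libraries, levels with collection as a covariate and collections with 1 mean for each treatment and collection. Rhythms were tested with JTK_CYCLE written in Python 3.11.15 (numpy 2.4.6, scipy 1.17.1, pandas 2.3.3, matplotlib 3.10.9) on CPM over a 24 h period in phase steps of 2 h, at the study's P threshold of 0.01. DESeq2 1.42.0, other filters and scalings, a JTK_CYCLE null over merged collections, single runs, library numbers and leaving out libraries were alternatives. Time was counted from the order of collections, 4 h apart, because the clock hours in the labels do not advance evenly. Values of every library, or the lowest, median and highest of a treatment, are given for members past a JTK_CYCLE or level threshold by either naming. They are also given for Fn1 and Sparc in HH. Members past the test between collections alone are named, some without values. The rest are given as ranges or counts with examples chosen after their values were seen. The scripts were tested on simulated data. Total counts limit the precision of members under 10 CPM.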

Additional observations from a re-analysis of the deposited data

Results flagged for a closer look

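For 15 members, the treatments and collections with exactly 4 libraries gave 195 groups of 4 values. In 9 of these groups 1 value lay far from the other 3 by Dixon's test, and chance gives about 1 in 20. By titles these were Spon2 in HL at 4 h, where 1 library had 58.8 CPM and the nearest 14.5 CPM, and Sparc in the same collection, where 1 library had 15628 CPM and the nearest 8750 CPM. In LH by titles Fn1 at 12 h was at 793 CPM in 1 library against 1930 CPM in the nearest, and at 16 h Fbn2 was at 3.75 CPM against 2.59 CPM and Spon2 at 11.5 CPM against 12.3 CPM. In HH at 0 h Postn was at 771 CPM in 1 library against 917 CPM. By library numbers Fbn2 in HL at 12 h was at 1.59 CPM against 2.47 CPM, Mgp in LH at 20 h at 102 CPM against 180 CPM, and Aspn in LH at 8 h at 652 CPM against 542 CPM.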

How the results depend on the processing

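Only the naming of the libraries reversed a called difference. Shares of all genes were worked out for the main tests by titles and by library numbers alone, and are given above. The other counts of members in this section thus cannot be set against all genes. With library numbers in place of titles the LH against HL difference reversed to -0.33 for Emilin1 and -0.16 for Smoc2 (log2), the members rhythmic in HL went from 2 to 4 and in LH from 2 to 5, those with a level difference were 1 for LH against HL, 0 for HH against HL and 2 for LH against HH (from 2, 3 and 1), and those that differ between collections were 4 in each treatment (from 2). With Benjamini-Hochberg adjustment at 0.05 the rhythmic members and the level differences were 0 in every comparison. With a threshold of 0.05, 4 members were rhythmic in LH. With the first run alone, 1 member was rhythmic in HL and 1 in LH, 1 differed in level for LH against HL and 1 between LH collections. With the second run alone, 1 was rhythmic in HL and 3 in HH, 2 differed in level for LH against HH, 1 between HL collections and 4 between LH collections. Without a filter, 5 differed in level for LH against HL and 2 for LH against HH, 11 between collections in each treatment, and 1 in rhythm for LH against HL and for HH against HL. DESeq2 gave 4 members between collections of HL and of HH and 1 rhythm difference for LH against HL and for HH against HL. Unadjusted, the collections gave 6, 4 and 5 members in HL, LH and HH at 0.01 and rhythm differences 5, 7 and 6 at 0.05. The following alternatives were chosen after seeing the data. Without the 4 libraries that stand apart, level differences were 4 for LH against HL and 2 for LH against HH, LH collections 4 and rhythm differences for LH against HL 1, and by numbers 2 for HH against HL and 7 between HL collections. By numbers the cosinor in edgeR gave 8 rhythmic members in HL.

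Leaving out each replicate of each treatment, rhythmic members were 1 to 2 in HL, 0 to 2 in LH and 1 to 5 in HH, and by numbers 1 to 4 in HL and 2 to 5 in LH. Level differences were 1 to 4 for LH against HL, 1 to 4 for HH against HL and 0 to 1 for LH against HH, and by numbers 1 to 3, 0 to 1 and 1 to 3. Members between collections were 0 to 4 in HL, 0 to 3 in LH and 0 to 4 in HH, and by numbers 1 to 5, 3 to 4 and 2 to 8. Rhythm differences were 0 to 1, 0 to 1 and 0 to 0.

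Same-numbered replicates did not deviate together by titles (14 of 53 pairs over a correlation of 0.1, with the closest library of the same number in 18 of 62), and by library numbers 33 of 43 pairs were over 0.1 and 29 of 56 libraries were closest to one of their own number, so same-numbered libraries tended to deviate together by library numbers but not in every pair. Because no source says what a number shares, the numbers were not taken as pairs and the results above are without a block. With the replicate block, 1 member differed in level for LH against HL and 1 between LH collections. By library numbers with the replicate block, level differences were 2, 1 and 4 for LH against HL, HH against HL and LH against HH, collections 8, 7 and 9 in HL, LH and HH, and the cosinor 10 rhythmic members in HL and 9 in LH. For single genes, 401 values kept their side of the threshold, 83 lost the call and 2 reversed in direction. Direction was compared for level differences alone and not for the P of JTK_CYCLE. The causes were not tested.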
